A study of Mus musculus with 6 samples.

Results

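This report concerns 10 unconventional myosins in regulatory T (Treg) cells with and without the transcription factor Batf: Myo6, Myo1c, Myo1d, Myo1e, Myo1f, Myo1g, Myo5a, Myo9b, Myo10 and Myo7a. They were taken by name, through every probe set annotated to exactly 1 gene, and all 10 were measured, by 28 probe sets, among the 18193 genes tested. The family was chosen by the measured difference between these same arrays, in which Myo6 had been seen among the genes with the largest increases, so the differences between genotypes given for these 10 genes, and the calls made on them, are a description and support nothing. RNA was measured on 6 arrays, 3 from Batf+/+ and 3 from Batf-/- mice of the C57BL/6 strain. In both genotypes the mice carried the FoxP3hCD2 reporter, which puts human CD2 on cells that express Foxp3, and the cells were CD4+ and hCD2+, came from lymph node together with spleen, and were not treated or cultured. The labels give the Batf genotype of the mouse and restrict it to no cell type, and they give no age and do not say whether the 3 samples of a genotype came from separate mice, so a p-value here sets a difference against the scatter of these samples only, and that scatter may be technical. With 3 arrays a genotype the number of arrays limits the precision.

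Myosins are motors that pull on actin filaments by splitting ATP. The class II myosins of muscle and of contracting cells assemble into filaments, while the unconventional classes work as single or paired motors that tie membranes to actin, carry vesicles or build protrusions. In lymphocytes such motors are known from the cell cortex, from migration and from uptake and recycling of surface molecules. Class I motors (Myo1c to Myo1g here) are single-headed and bind membrane lipids through the tail, Myo5a walks cargo outwards along actin, and Myo6 is the motor known for walking the opposite way, towards the pointed end of the filament. Batf is an AP-1 factor that pairs with Jun proteins on DNA and also binds composite sites with Irf4.

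Of the 10 genes, Myo6 was higher and Myo1f was lower in Batf-/- Treg cells past the threshold of the fit, and the other 8 were not past it. Myo6 was 2.13-fold higher, and Myo1f, a class I motor found mainly in cells of the immune system, was 2.90-fold lower. The threshold was an adjusted p below 0.05 in a limma fit to all genes, which called 1.14% of them, 0.313% as higher and 0.83% as lower. The members were chosen with this contrast in view, and the 2 calls among 10 are given beside that share without a reading. The median log2 difference of the 10 genes was -0.08, beside 0.00 for all genes, and the median of its size was 0.13, beside 0.07 for all genes. Every level below is a log2 value set against the Batf+/+ median of its probe sets, so it shows how a gene differed between arrays and not how abundant its transcript was. These are bulk values, in which fewer cells of a kind and less RNA per cell cannot be told apart.

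**Figure D1:**
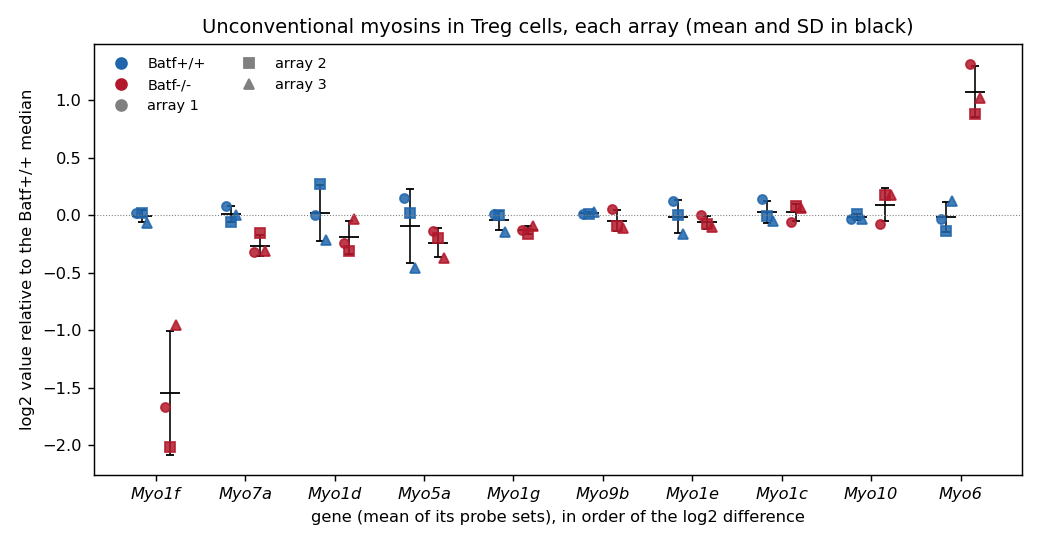
Level of each of the 10 unconventional myosins on every array, as the mean of the gene's probe sets (vertical axis: log2 value relative to the Batf+/+ median; blue: Batf+/+, red: Batf-/-; circle, square and triangle: arrays 1, 2 and 3; black: mean and SD). Myo1f lies between -2.02 and -0.95 on the Batf-/- arrays and Myo6 between 0.88 and 1.32, while the Batf-/- means of the other 8 genes lie between -0.27 and 0.09.

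The promoters of the genes that were called are shown because Batf acts by binding DNA. RefSeq windows (GRCm38.p6) running from 250 bases before to 50 bases after an annotated start were held for 9 of the 10 genes, in 13 windows, and Myo1d had no entry. The Myo6 window is chr9:80164784-80165083 and the Myo1f window chr17:33555457-33555756, both on the plus strand. Capitals mark every match to the GC box GGGCGG, a site of Sp1 family factors, on either strand.
Myo6: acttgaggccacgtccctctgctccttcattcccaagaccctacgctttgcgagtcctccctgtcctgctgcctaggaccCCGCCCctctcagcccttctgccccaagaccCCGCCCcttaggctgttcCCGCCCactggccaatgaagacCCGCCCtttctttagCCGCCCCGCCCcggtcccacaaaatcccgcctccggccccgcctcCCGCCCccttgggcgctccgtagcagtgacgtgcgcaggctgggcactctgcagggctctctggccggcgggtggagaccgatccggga
Myo1f: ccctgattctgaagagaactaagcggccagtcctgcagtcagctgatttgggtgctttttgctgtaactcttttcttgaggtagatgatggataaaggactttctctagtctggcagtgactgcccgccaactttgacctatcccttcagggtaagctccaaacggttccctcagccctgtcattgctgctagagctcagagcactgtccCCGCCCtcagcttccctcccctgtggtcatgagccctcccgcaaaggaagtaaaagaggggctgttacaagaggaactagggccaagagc
The Myo6 window held 7 GC boxes, of which a pair shares 1 base, with 22 CpG dinucleotides and 68.3% G or C. The Myo1f window held 1 GC box, 5 CpG dinucleotides and 53.0% G or C, near the median of 52.7% over all 32851 windows of this length, whose median CpG number was 7. A GC box occurred in 35.7% of all windows and in 9 of the 13. The AP-1 motif TGANTCA, searched on both strands, was in neither of the windows printed here. It occurred in 1 of the 13, a Myo1c window, against 7.81% of all windows. The related motif TGACGTCA, in 1.79% of all windows, and both forms of the AP-1 and IRF composite element (AICE), in 0.125% and 0.119% of all windows, each of which contains the AP-1 motif, occurred in 0 of the 13. A match is only a match of letters, and the absence of one covers this window alone.

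Myo6, whose tail binds endocytic and autophagy adaptors, had values of -0.04, -0.14 and 0.12 on Batf+/+ arrays 1, 2 and 3 and of 1.32, 0.88 and 1.02 on Batf-/- arrays 1, 2 and 3. All 3 Batf-/- arrays lay above all 3 Batf+/+ arrays, and Batf-/- array 1 was the highest. The means were -0.02 ± 0.13 (SD, n = 3) and 1.07 ± 0.22 (SD, n = 3), and the log2 difference was 1.09 ± 0.12 (SE, 95% interval 0.81 to 1.36, limma adjusted p = 0.00353), the 17th highest of all genes. Its 3 probe sets moved alike. Probe set 1433942_at gave a log2 difference of 1.36 ± 0.16, 1421120_at gave 1.03 ± 0.13 and 1435559_at gave 0.88 ± 0.11, and all 3 were past the threshold when each of the 34945 probe sets was tested (limma adjusted p = 0.00987, 0.0162 and 0.0168), a fit that called 0.713% of them. On Batf-/- array 1 the 3 probe sets lay between 1.05 and 1.62, on array 2 between 0.65 and 1.15 and on array 3 between 0.88 and 1.26, so the order of the arrays was the same in each. The gene kept its call without any 1 array, with log2 differences of 0.97 to 1.18, whereas its probe sets, tested singly, did not. Without Batf+/+ array 1 the adjusted p was 0.0677 for 1433942_at, 0.0926 for 1421120_at and 0.0993 for 1435559_at. Without Batf+/+ array 2 it was 0.0870 for 1421120_at and 0.0873 for 1435559_at, and the latter also had 0.0591 without Batf+/+ array 3 and 0.0614 without Batf-/- array 3.

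Myo1f, a long-tailed class I motor known from the migration of neutrophils, had values of 0.02, 0.02 and -0.07 on Batf+/+ arrays 1, 2 and 3 and of -1.67, -2.02 and -0.95 on Batf-/- arrays 1, 2 and 3. The Batf-/- arrays all lay below the Batf+/+ arrays but were spread more widely among themselves, with array 3 nearest to the Batf+/+ level. The means were -0.01 ± 0.05 (SD, n = 3) and -1.55 ± 0.54 (SD, n = 3), and the log2 difference was -1.53 ± 0.22 (SE, 95% interval -2.04 to -1.03, limma adjusted p = 0.0119), the 16th lowest of all genes. Its probe sets differed in size. Probe set 1429524_at gave a log2 difference of -2.20 ± 0.30 (adjusted p = 0.0201 in the limma fit to probe sets) and 1429525_s_at one of -1.61 ± 0.24 (adjusted p = 0.0293). The suffix of the latter marks sequence shared by more than 1 transcript. Probe set 1421618_at gave -0.79 ± 0.19 and was not past the threshold (adjusted p = 0.177), with values of -0.32, 0.05 and 0.00 on Batf+/+ arrays 1, 2 and 3 and of -0.97, -1.19 and -0.47 on Batf-/- arrays 1, 2 and 3. In all 3 probe sets Batf-/- array 2 was the lowest and array 3 the highest of the Batf-/- arrays. The gene was not past the threshold without Batf+/+ array 1 (log2 difference -1.52, adjusted p = 0.0648) or without Batf+/+ array 2 (-1.52, adjusted p = 0.0623). The called probe sets lost their calls without any 1 of the Batf+/+ arrays, where 1429524_at had adjusted p values of 0.119, 0.102 and 0.0691 and 1429525_s_at of 0.17, 0.136 and 0.101 without arrays 1, 2 and 3. Probe set 1429525_s_at also lost its call without Batf-/- array 1 (0.0520) or 2 (0.0640).

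Batf-/- array 3 also differed from the other Batf-/- arrays in Batf itself and in some markers of other cells. Batf was 7.43-fold lower in Batf-/- cells (log2 difference -2.89 ± 0.19 SE, limma adjusted p = 0.000202), with -3.13, -3.16 and -2.37 on Batf-/- arrays 1, 2 and 3. The mean level of 7 measured B cell markers was 0.08, 0.05 and 0.41 on Batf-/- arrays 1, 2 and 3. On Batf+/+ arrays 1, 2 and 3 it was -0.07, -0.04 and 0.09, so array 3 was the highest in both genotypes. Cd22, named after its value was seen, had the largest value, with 0.52, 0.43 and 1.76 on Batf-/- arrays 1, 2 and 3. On array 3 Cd79a, Cd79b and Ms4a1 had 0.34, 0.47 and 0.34, while Pax5, Blk and Fcrla had -0.08, 0.03 and 0.02. For 8 myeloid markers the mean level was -0.12, 0.03 and 0.32 on Batf-/- arrays 1, 2 and 3. It was -0.05, -0.02 and 0.13 on Batf+/+ arrays 1, 2 and 3, again highest on array 3. For 6 markers of CD8 T and NK cells it was 0.03, 0.12 and 0.32 on Batf-/- arrays 1, 2 and 3. On Batf+/+ arrays 1, 2 and 3 it was -0.09, 0.12 and -0.04. The largest values among these 6 markers, named after they were seen, were those of Nkg7, with 0.56, 0.54 and 1.10 on Batf-/- arrays 1, 2 and 3, and Eomes, with 0.10, 0.20 and 0.84. The defining genes Cd8a, Cd8b1 and Ncr1 had 0.13, 0.03 and -0.09 on array 3, and Klre1 had -0.07. In these 3 lists 0 of 21 genes were past the threshold of the limma fit, beside 1.14% of all genes, and 3 had an unadjusted p below 0.05, beside 7.69%. Their part in the Myo1f values was not tested, and without Batf-/- array 3 the log2 difference of Myo1f was -1.83 (limma adjusted p = 0.000274) and that of Myo6 was 1.12 (adjusted p = 0.00993). Among the 24 measured markers of neutrophils, dendritic, erythroid, stromal, endothelial and epithelial cells 1 was past the threshold, the epithelial adhesion molecule Epcam (log2 difference -0.53 ± 0.08, adjusted p = 0.0119), named after its value was seen. The mean levels of these lists ran from -0.16 to 0.12 on Batf+/+ arrays and from -0.19 to 0.14 on Batf-/- arrays. Of 8 measured genes that define Treg and CD4 T cells, 0 were past the threshold of the limma fit, beside 1.14% of all genes. An unadjusted p below 0.05 was found for 3 of the 8, beside 7.69% of all genes. The 8 genes had log2 differences between -0.51 (Ikzf2, ± 0.10, adjusted p = 0.0526) and 0.21, with 6 of 8 below 0. Their mean level ran from -0.07 to 0.03 on Batf+/+ arrays and from -0.18 to -0.11 on Batf-/- arrays, without overlap, and 5 of the 8 genes did not overlap singly, against 12.0% of all genes. The part of this list in the myosin values was not tested either. Whether any marker was present could not be told from levels given relative to the Batf+/+ arrays. The difference between 3' and 5' control probe sets, a sign of RNA quality, was taken for Gapdh and Actb. For Gapdh it ran from 0.00 to 0.08 on Batf+/+ arrays and from -0.02 to 0.07 on Batf-/- arrays. For Actb it ran from -0.03 to 0.04 on Batf+/+ arrays and from -0.01 to 0.11 on Batf-/- arrays, highest on array 2. Each probe set is centred on its Batf+/+ median, so these values show only how arrays differed from one another. They do not show how intact the RNA was.

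**Figure D2:**
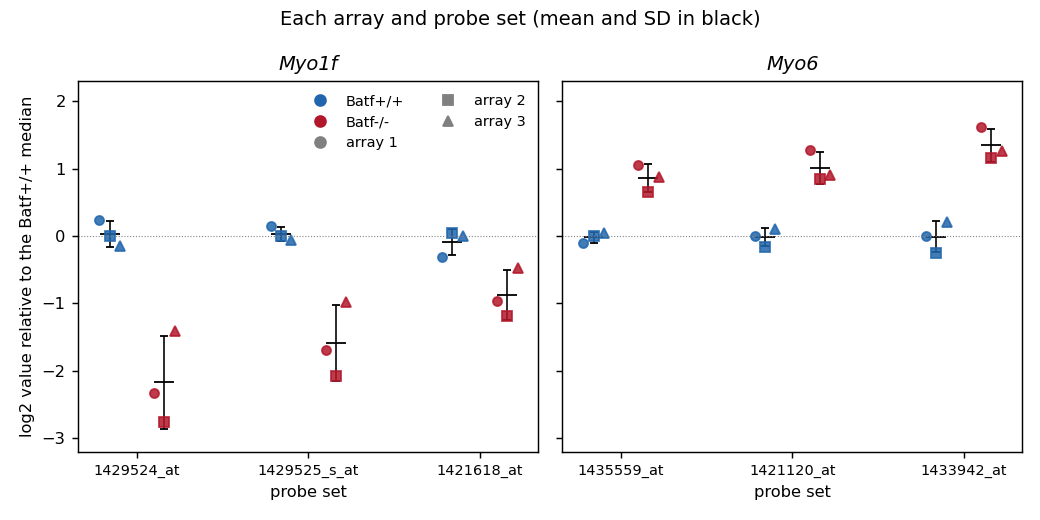
Levels of Myo1f (left) and Myo6 (right) by probe set and array (vertical axis: log2 value relative to the Batf+/+ median; blue: Batf+/+, red: Batf-/-; circle, square and triangle: arrays 1, 2 and 3; black: mean and SD). In each of the 6 probe sets the genotypes do not overlap, and the Myo1f probe sets lie between -2.77 and -0.47 on the Batf-/- arrays, where the triangle of array 3 is the highest.

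The other 4 class I motors were not past the threshold, and their arrays overlapped between genotypes. Myo1g, a short-tailed motor of blood cells that holds the lymphocyte membrane to the cortex, had values of 0.01, 0.00 and -0.15 on Batf+/+ arrays and of -0.13, -0.17 and -0.10 on Batf-/- arrays 1, 2 and 3 (log2 difference -0.09 ± 0.08 SE, 95% interval -0.26 to 0.09). Myo1c, a motor linked to the delivery of the glucose transporter GLUT4, had a log2 difference of 0.00 ± 0.08 (95% interval -0.19 to 0.19), with its 4 probe sets between -0.06 and 0.11. Myo1e, the long-tailed relative of Myo1f, had one of -0.05 ± 0.09 (95% interval -0.25 to 0.16), with its 4 probe sets between -0.20 and 0.03. Myo1e and Myo1f have the same tail domains, and the interval of Myo1e lies above that of Myo1f. Myo1d, a short-tailed class I motor, had one of -0.21 ± 0.13 (95% interval -0.50 to 0.08). Its values were 0.00, 0.27 and -0.22 on Batf+/+ arrays 1, 2 and 3 and -0.24, -0.31 and -0.03 on Batf-/- arrays 1, 2 and 3, so the Batf+/+ arrays alone spanned most of the range, and its 2 probe sets gave -0.37 ± 0.19 and -0.05 ± 0.16.

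Myo5a, Myo9b, Myo10 and Myo7a, each of another class, were not past the threshold either. Myo5a, the vesicle carrier, had values of 0.15, 0.01 and -0.46 on Batf+/+ arrays 1, 2 and 3 and of -0.14, -0.20 and -0.38 on Batf-/- arrays 1, 2 and 3 (log2 difference -0.14 ± 0.15 SE, 95% interval -0.48 to 0.20). In both genotypes array 3 was the lowest, and probe set 1419754_at had -0.72 on Batf+/+ array 3 and -0.78 on Batf-/- array 3. Myo9b, whose tail switches off the GTPase RhoA, had a log2 difference of -0.07 ± 0.08 (95% interval -0.24 to 0.11), and its probe sets lay between -0.15 and 0.06. Myo10, which carries cargo to the tips of filopodia, had one of 0.11 ± 0.09 (95% interval -0.09 to 0.31), with all 4 probe sets between 0.05 and 0.21. Myo7a, known from the hair cells of the inner ear, had values of 0.08, -0.06 and 0.00 on Batf+/+ arrays and of -0.32, -0.16 and -0.31 on Batf-/- arrays 1, 2 and 3. Its genotypes did not overlap, and its log2 difference was -0.27 ± 0.08 (95% interval -0.46 to -0.09, limma adjusted p = 0.283) from 1 probe set. In all, arrays did not overlap in 3 of the 10 genes, Myo6, Myo1f and Myo7a, a separation found in 12.0% of all genes. Over the 8 genes not past the threshold the 95% intervals ran from -0.50 to 0.31, and 1 log2 unit, a 2-fold difference, lay outside each of them.

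**Figure D3:**
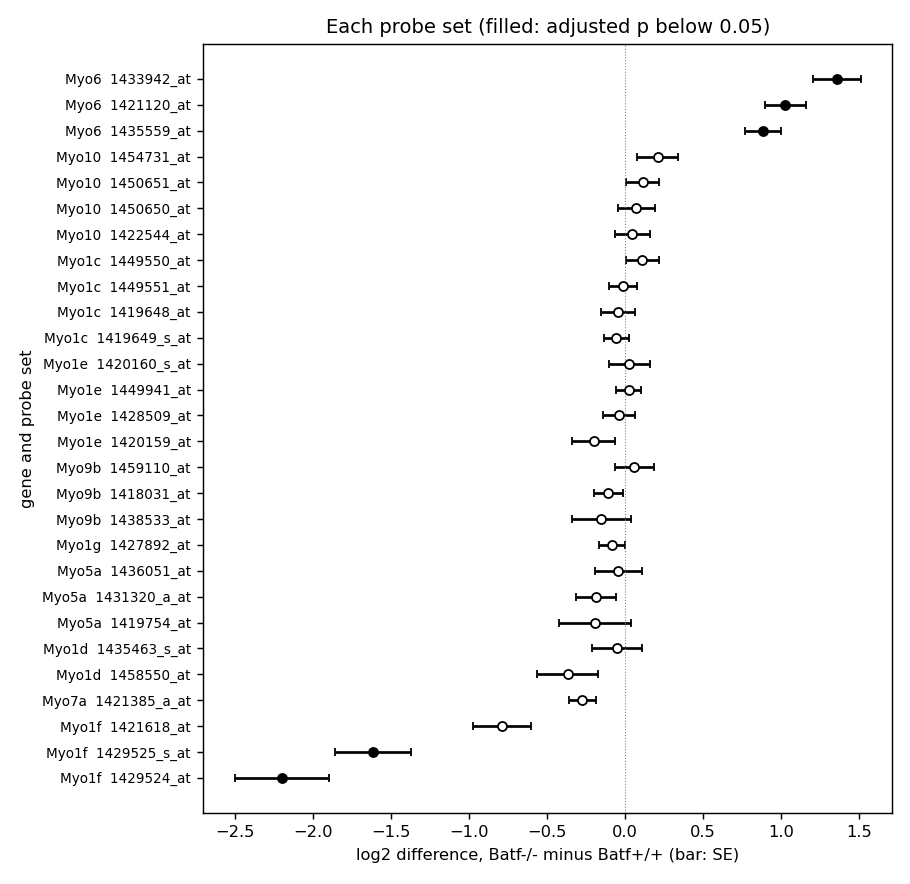
Log2 difference (Batf-/- minus Batf+/+, horizontal axis; bar: SE) of each of the 28 probe sets of the 10 genes, filled where the adjusted p is below 0.05. The 5 filled points are all 3 Myo6 probe sets, between 0.88 and 1.36, and 2 of the 3 Myo1f probe sets, at -2.20 and -1.61.

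Of 14 further unconventional myosins measured, listed by family membership, 1 was lower and 1 was higher past the threshold in Batf-/- cells, where 0.83% and 0.313% of all genes were. Myo1h, a little studied class I motor, fell by 0.59 ± 0.08 on the log2 scale (SE, limma adjusted p = 0.00904). Its values were 0.06, 0.00 and -0.03 on Batf+/+ arrays and -0.55, -0.50 and -0.69 on Batf-/- arrays 1, 2 and 3, with no overlap. It was not past the threshold after quantile normalization (-0.50, adjusted p = 0.0593) or without Batf+/+ array 1 (-0.57, adjusted p = 0.0510) or 2 (-0.59, adjusted p = 0.0529). Myo3b, a class III motor with a kinase domain known from sensory cells, was 1.95-fold higher (log2 difference 0.97 ± 0.15, adjusted p = 0.0199). Its values were 0.10, 0.00 and -0.14 on Batf+/+ arrays and 1.31, 0.65 and 0.90 on Batf-/- arrays 1, 2 and 3, again without overlap. Without Batf+/+ array 1, 2 or 3 its adjusted p was 0.0636, 0.0877 and 0.0839, with log2 differences of 1.02, 0.97 and 0.90. Each of these genes had 1 probe set. The class III relative Myo3a, named after its value was seen, had a log2 difference of 0.38 ± 0.11 and was not past the threshold (adjusted p = 0.272). The median over the 14 genes was -0.01. Counting both sets, the members having been chosen by this contrast, 18 of the 24 unconventional myosins measured differed by less than 0.25 on the log2 scale. Most of the 18193 genes tested did so too. A log2 difference of 0.23 (Rab27a) was the 601st highest of all genes and one of -0.25 (Vasp) the 665th lowest.

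Genes of motor partners, together with the class II myosins and their light chains and regulators, gave 0 calls in the limma fit among 85 measured genes, next to 1.14% of all genes called, and 0 of them differed by 0.25 or more on the log2 scale. An unadjusted p below 0.05 was found for 4 of the 85, beside 7.69% of all genes. Of 13 measured adaptors and cargo of Myo6, log2 differences ran from -0.15 (Vcl, ± 0.07 SE) to 0.14 (Ncoa7, ± 0.19), with a median of 0.03. For 18 adaptors and cargo of myosin V they ran from -0.22 (Sytl2, ± 0.15) to 0.23 (Rab27a, ± 0.09), with a median of -0.01. Rab27a is a GTPase that links vesicles to myosin V through its effectors. For 17 partners of the other members the log2 differences ran from -0.25 (Vasp, ± 0.07) to 0.13 (Rala, ± 0.09), with a median of 0.00. Vasp, which extends actin filaments and is carried by Myo10, had an adjusted p of 0.256 in the limma fit. The 12 class II heavy chains lay between -0.16 (Myh3) and 0.22 (Myh7), with a median of 0.01, the 20 light chains, kinases and phosphatase subunits between -0.19 (Myl10) and 0.22 (Mylpf), with a median of 0.02, and 5 genes for calmodulin-like and folding proteins between -0.06 (Hsp90aa1) and 0.16 (Calml3), with a median of -0.01. The members had a median of -0.08, beside 0.00 for all genes.

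**Figure D4:**
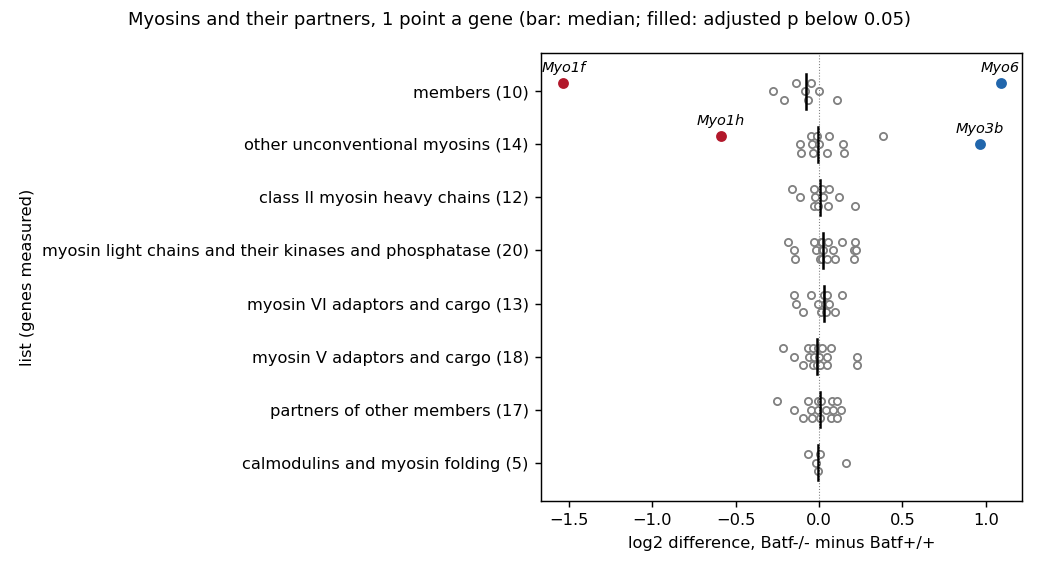
Log2 differences (Batf-/- minus Batf+/+, horizontal axis) of the 10 members and of 7 lists of related genes, 1 point a gene, with the median as a bar and calls at an adjusted p below 0.05 filled and named (red: lower, blue: higher). The named genes are Myo1f, Myo6, Myo1h and Myo3b, and the 85 genes of the lower 6 lists all lie within 0.25 of 0.

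Genes were compared by the root mean square difference over the 6 arrays, after each gene was centred on its own median of these arrays. By this measure those closest to Myo1f were Zcchc18 (0.204), Ctla2b (0.211), Lgals3 (0.212), Cxcr3 (0.284) and Cela1 (0.296), out of 18192 compared. Lgals3, a galectin, had -2.11, -2.33 and -1.36 on Batf-/- arrays 1, 2 and 3. Cxcr3, a chemokine receptor not past the threshold (limma adjusted p = 0.249), had -1.43, -1.69 and -0.29. In both, as in Myo1f, array 3 was the highest of the Batf-/- arrays. The genes were picked by likeness over these same arrays, so a shared order of the arrays is in part built in. Those closest to Myo6, taken in addition after its value was seen, were Ppic (0.163), Myo3b (0.173), Prg4 (0.186), Il21 (0.227) and Susd1 (0.227). Ppic, a cyclophilin that helps proteins fold, had 1.06, 0.70 and 0.87 on Batf-/- arrays 1, 2 and 3. On these arrays Ppic, Myo3b and Susd1 were, like Myo6, highest on array 1 and lowest on array 2. Prg4, with 1.46, 0.89 and 1.48, and Il21, with 1.20, 1.24 and 1.10, did not have that order.

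The nearest measured protein-coding genes on either side of Myo6 and Myo1f, by the order of RefSeq genes in GRCm38.p6, were not past the threshold. Beside Myo6 on chromosome 9, the log2 difference was 0.23 ± 0.12 for Senp6 (SE, limma adjusted p = 0.802) and 0.18 ± 0.07 for Impg1 (adjusted p = 0.552). Beside Myo1f on chromosome 17, it was -0.07 ± 0.08 for Adamts10 and -0.07 ± 0.11 for Zfp414. The Batf-/- arrays of Impg1 all lay above its Batf+/+ arrays (0.22 to 0.23 against -0.02 to 0.12). Such non-overlap, in either direction, was found in 12.0% of all genes. The arrays of Senp6, Adamts10 and Zfp414 overlapped between genotypes. Batf lies on chromosome 12, which holds 0 of the 10 genes. Myo1e and Myo5a lie on chromosome 9 with Myo6, and Myo1c, Myo1d and Myo1g on chromosome 11.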

How the data were processed

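Total RNA of Treg cells was labelled with biotin by a 3' kit and hybridised, per the labels' protocols. The deposited values are, as the authors deposited them, taken as log2 values. The authors used RMA, according to the submitters' processing notes, and its version and log base are not given in the sources used here. In all 45101 probe sets the median of the Batf+/+ arrays is exactly 0, a centring that no label describes. It keeps differences between genotypes and removes absolute levels, so no filter on dim probe sets was possible.

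Probe sets annotated to 1 gene (34945) were averaged by gene, and both genotypes were fitted in limma 3.58.1 (R 4.3.3), with p-values adjusted by Benjamini and Hochberg's method. A second fit tested each probe set. The code was tested on simulated data. The members and lists were chosen with earlier results of these data known. Named genes are Batf, the members, and of each list the called genes and the highest and lowest, plus the 5 genes most like the member with the largest difference. The genes beside Myo6 and Myo1f, the genes most like Myo6 and the single cell markers were named in addition, after values were seen. Across genes, what an array differed from its genotype's mean correlated between same-numbered arrays at 0.407, 0.154 and 0.413. Between differently numbered arrays of the 2 genotypes it correlated at -0.413 to 0.0491. Such deviations sum to 0 in a genotype, so positive values for some pairs bring negative ones for others. The same-numbered values were all above 0.1, so the numbers in the sample titles were taken to pair the arrays. No label says what a number shares. The main fits held genotype only, and the pairing entered only an alternative fit, the replicate block given below.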

Additional observations from a re-analysis of the deposited data

How the results depend on the processing

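Myo6 was past the threshold in all 12 alternatives of the gene fit, with log2 differences of 0.88 (quantile normalization) to 1.18, and Myo1f in 10 of 12, with -1.83 to -1.11. With the replicate block, the pairing by sample number, 2 of the 10 members were called, as without it, with adjusted p values of 0.00443 for Myo6 and 0.0193 for Myo1f, and 5 member probe sets. Among Batf, the members, Myo1h, Myo3b and the highest and lowest genes of the lists of relatives and partners, the block changed no call. It raised the genes called from 208 to 293, those higher from 57 to 91 and those lower from 151 to 202. The probe sets called rose from 249 to 328, those higher from 61 to 92 and those lower from 188 to 236. Quantile normalization lowered the genes called from 208 to 80 (22 higher and 58 lower) and the probe sets called from 249 to 120 (33 higher and 87 lower), and the cause was not tested. Leaving out 1 array gave 105 to 192 genes (31 to 51 higher and 73 to 141 lower) and 81 to 280 probe sets (17 to 56 higher and 64 to 224 lower), from fewer arrays. It gave 1 or 2 members called, 1 of them higher each time and 0 or 1 lower, and 0 to 5 member probe sets called, 0 to 3 higher and 0 to 3 lower. Without Batf+/+ array 1, 0 of the member probe sets were called. Without Batf-/- array 3 the third Myo1f probe set, 1421618_at, was called (adjusted p = 0.0450). Among the 8 other members 0 were called in any alternative, and the sign of the difference changed for Myo1c in 4 and for Myo1e in 2. No filter on dim probe sets was run, since the values are centred. The level of Myo6 in Batf-/- cells after quantile normalization was 0.84, more than 1 SD below that reported.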
